A study of Mus musculus with 8 samples.

Results

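The enzymes of mitochondrial beta-oxidation were followed through single-nucleus RNA sequencing (snRNA-seq) of hearts from wild-type (WT) mice and mice without tafazzin (Taz-KO). The set held 10 genes, taken by symbol from the 32285 genes counted. Acadvl, Acadl, Hadha and Hadhb act on long-chain acyl-CoA, Acadm, Acads, Echs1, Hadh and Acaa2 act on medium- and short-chain acyl-CoA, and Eci1 brings unsaturated chains into the spiral. Hearts came from males of 9 weeks of age, 4 WT and 4 Taz-KO. Each whole heart was minced and cryopreserved, and its nuclei gave 1 library on the 10x Genomics 3′ v3.1 chemistry. All groups were whole hearts, so each library mixed atria and ventricles and all cell types. The sources used here gave no further agent or allele. RNA came from nuclei, where spliced mRNA of metabolic enzymes is only partly represented.

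Beta-oxidation shortens a fatty acyl-CoA inside the mitochondrion by repeated rounds of 4 reactions, which are dehydrogenation, hydration, a further dehydrogenation and thiolytic cleavage to acetyl-CoA. Separate enzymes serve long, medium and short chains. The very long-chain dehydrogenase and the trifunctional protein sit at the inner membrane, whose cardiolipin is remodeled by tafazzin. The adult heart takes most of its energy from this pathway, and its genes are known targets of the nuclear receptors of the PPAR and ERR families.

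The deposited counts of unique molecular identifiers (UMIs) totaled 20025456 to 348080773 per library. Taz-KO mice 4685 and 5301 stood apart, with 3492 and 5571 barcodes against 21190 to 36308 in the other 6 libraries. Of the barcodes that passed the filters on UMIs and genes, 16231 were removed as likely doublets, and the other 151264 were clustered. In 6 of the 8 libraries the barcodes outnumbered the nuclei that the study's methods state were loaded, and more were kept here than in the study, so the clustered barcodes, called nuclei below, need not each hold an intact nucleus. Marker genes named 26911 nuclei as cardiomyocyte-like, 38739 as fibroblast-like, 19254 as endothelial-like, 12034 as macrophage-like and 901 as adipocyte-like, and these are called by the cell type below. Another 42260 nuclei stayed unnamed, 2524 of them from Taz-KO mouse 4685. Taz-KO mouse 4685 contributed 160 cardiomyocyte nuclei, against 1167 to 6174 in each of the other 7 mice. Of all barcode sequences, 1.96% occurred in more than 1 library. Counts of each cell type were summed per mouse, leaving out mitochondrially encoded genes, and levels are given as counts per 1000000 (CPM) of these sums. Each genotype difference is a log2 fold change of Taz-KO over WT from edgeR's quasi-likelihood fit on 4 against 4 mice. Its standard error (SE) was derived from the log2 fold change and the F statistic of edgeR's quasi-likelihood test. The p-values of that test were adjusted by Benjamini-Hochberg over all genes tested. A gene was called where the adjusted p was below 0.05.

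Hadha and Hadhb, which encode the 2 subunits of the mitochondrial trifunctional protein, lie head to head on chromosome 5 (GRCm38), Hadha at chr5:30118304-30155162 on the minus strand and Hadhb at chr5:30155248-30184593 on the plus strand. Only 85 bases separate these GENCODE positions. The promoter windows (250 bases before to 50 after a start) follow the RefSeq table for GRCm38.p6 and share 228 bases. RefSeq places the start of Hadha further inside the gene than GENCODE does, so the 85 bases are not the gap between the RefSeq starts. The stretch between the GENCODE positions is shown because a single short region lies upstream of both subunits. It is printed on the plus strand, at chr5:30155163-30155247, with 2 matches to the GC box GGGCGG in capitals.
Hadha and Hadhb, shared upstream stretch: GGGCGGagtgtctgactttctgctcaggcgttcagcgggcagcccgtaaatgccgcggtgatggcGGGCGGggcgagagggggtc
The GC box, searched on both strands, was present in the windows of 7 of the 9 members that the table held (Acadl, Hadh, Hadha, Hadhb, Acads, Echs1 and Eci1) and in 35.7% of all 32851 windows. Acaa2 had no entry. The only match in the Hadha window, at chr5:30155163-30155168, lies in the shared bases and was also counted for Hadhb.

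The half-site AGGTCA, which nuclear receptors recognize, was found on either strand in the windows of 3 of the 9 members and in 16.3% of all windows. The 3 stretches that hold it are shown, each on its gene's strand, which is minus for all 3. They lie at chr3:153944870-153944893 for Acadm, chr7:140116482-140116521 for Echs1 and chr11:70015493-70015532 for Acadvl. Capitals mark the half-site, which runs on the opposite strand in Acadm.
Acadm: gTGACCTtcgggctccggtgacac
Echs1: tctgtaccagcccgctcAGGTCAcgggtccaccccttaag
Acadvl: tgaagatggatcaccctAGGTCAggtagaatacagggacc
The extended half-site TNAAGGTCA, which contains the half-site, occurred in 0 of the 9 member windows and 1.28% of all windows. A pair of half-sites spaced by 1 base, AGGTCANAGGTCA, occurred in 0 of the 9 and 0.0396% of all. These are matches of letters in a short window and no measure of binding. The other members lie at chr1:66830839-66863277 (Acadl), chr5:115110299-115119346 (Acads), chr3:131233419-131272101 (Hadh) and chr17:24426641-24439348 (Eci1), while the genes of Acadm, Echs1 and Acadvl span chr3:153922357-153944632, chr7:140105710-140116476 and chr11:70010183-70015411.

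Taz itself, the acyltransferase that remodels cardiolipin and the gene targeted in the knockout, was read first. In cardiomyocytes its level was 53.4, 49.5, 54.4 and 49.3 CPM in WT mice 4686, 4909, 5355 and 5356, and 43.8, 38.1, 28.0 and 31.4 CPM in Taz-KO mice 4685, 4910, 5300 and 5301. All values below follow these orders of mice. Every Taz-KO mouse was below every WT mouse, but transcript remained in all 4 (log2 fold change -0.65, SE 0.18, edgeR adjusted p = 0.0319). The call was lost in 5 of the 8 fits that left out 1 mouse, namely without Taz-KO mouse 5301 or any of the 4 WT mice (adjusted p of 0.0531 to 0.0669 from edgeR). Which part of the gene the counted reads cover was not analysed here.

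In cardiomyocytes, 8 of the 10 beta-oxidation enzymes fell in Taz-KO mice (edgeR's quasi-likelihood test), where 6.9% of all 18257 genes tested were called lower. The 8 were Acadl, Hadha, Hadhb, Acadm, Acads, Hadh, Acaa2 and Eci1. The median log2 fold change of the 10 was -1.004, against -0.01 over all genes tested. For 5 of them (Hadha, Acadm, Hadh, Acaa2 and Eci1) no Taz-KO mouse reached the lowest WT mouse, a separation seen for 7.61% of all genes tested. The summed level of the 10 enzymes in cardiomyocytes averaged 1924 CPM ± 422 over WT mice and 1029 CPM ± 300 over Taz-KO mice (SD, n = 4 each), or 53.5% of WT. Taz-KO mice 4685 and 5301 had the lowest sums, 841 and 708 CPM, and also the lowest mitochondrial shares of their cardiomyocyte UMIs, 1.73% and 0.593%, against 5.01% to 16.9% in the other 6 mice. The median UMI count per cardiomyocyte nucleus was 2734 in mouse 5301 and 7176 to 23139 in the other 7. The part of these library differences in the enzymes' levels was not tested.

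**Figure D1:**
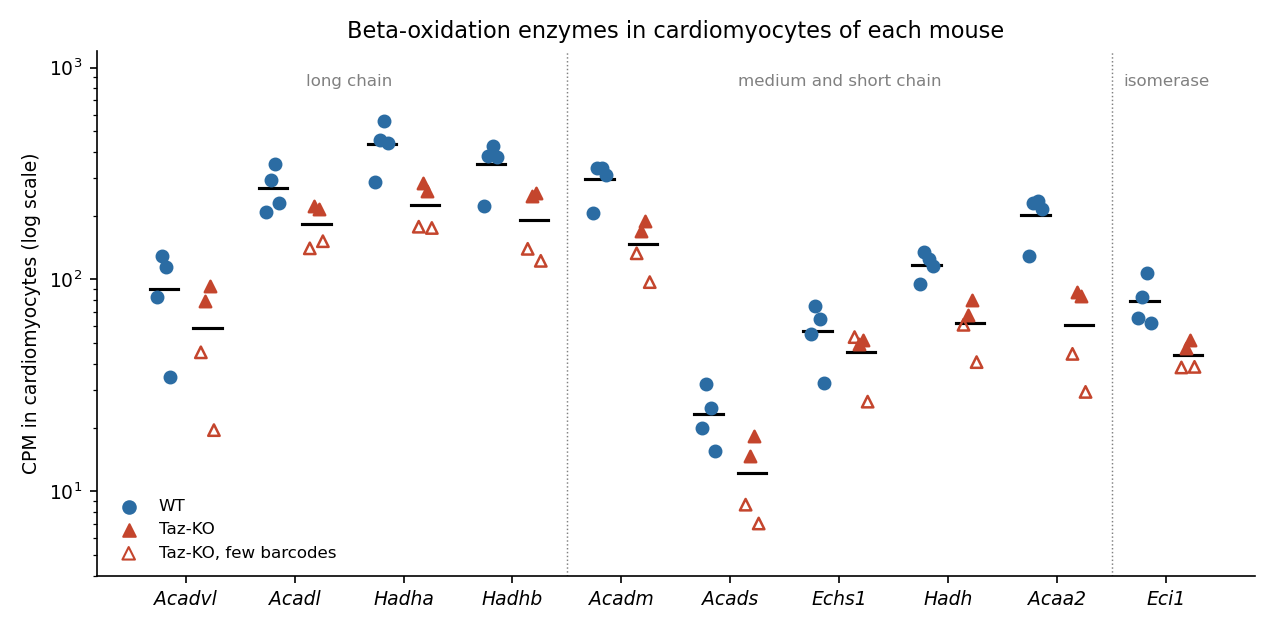
Level of each enzyme in the cardiomyocytes of each mouse, in CPM on a log axis, with WT mice as circles, Taz-KO mice as triangles, open triangles for the Taz-KO mice with few barcodes (4685 and 5301), and a bar at each group mean. The groups separate completely for Hadha, Acadm, Hadh, Acaa2 and Eci1, with Acaa2 at 30.4% of the WT mean, and overlap for the other 5 enzymes.

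Among the long-chain enzymes, the trifunctional protein, which carries out the last 3 reactions of each round, was lower in both of its subunits. Hadha, the subunit with hydratase and dehydrogenase activity, was at 288, 455, 557 and 441 CPM in WT and 177, 286, 260.2 and 175 CPM in Taz-KO cardiomyocytes. The groups did not overlap (log2 fold change -1.06, SE 0.24, edgeR adjusted p = 0.0109). Hadhb, the thiolase subunit, was at 223, 383, 424 and 379 CPM in WT and 139, 248, 256 and 122 CPM in Taz-KO. WT mouse 4686 lay below Taz-KO mice 4910 and 5300, so the groups overlapped, and the log2 fold change was -1.004 (SE 0.27, edgeR adjusted p = 0.0261). The 2 subunits thus had nearly equal differences in this fit. Without both Taz-KO libraries with few barcodes the log2 fold changes were -0.83 for Hadha and -0.64 for Hadhb. In fibroblasts they were -0.69 and -0.45.

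The 2 long-chain acyl-CoA dehydrogenases, which catalyze the first reaction, had smaller differences. Acadl, the long-chain enzyme of rodent heart and liver, was at 209, 294, 352 and 229 CPM in WT and 140.2, 221, 214 and 152 CPM in Taz-KO (log2 fold change -0.67, SE 0.21, edgeR adjusted p = 0.0469). Taz-KO mice 4910 and 5300 were above the lowest WT mouse. Acadvl, the very long-chain enzyme bound to the inner membrane, was at 82.9, 129, 114 and 34.5 CPM in WT and 45.3, 78.8, 92.8 and 19.5 CPM in Taz-KO. Its range in WT mice covered most of the Taz-KO values, with WT mouse 5356 below 3 of the 4 Taz-KO mice, and it was not called (log2 fold change -0.71, SE 0.45, edgeR adjusted p = 0.346).

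Among the medium- and short-chain enzymes, Acaa2, the thiolase that releases acetyl-CoA in the matrix, had the largest difference of the 10. It was at 128, 228, 234 and 215 CPM in WT and 44.5, 86.8, 83.8 and 29.5 CPM in Taz-KO cardiomyocytes. The highest Taz-KO mouse was well below the lowest WT mouse (log2 fold change -1.84, SE 0.32, edgeR adjusted p = 0.0031). Acadm, the medium-chain acyl-CoA dehydrogenase, was at 206, 334, 337 and 312 CPM in WT and 133, 170, 189 and 97.1 CPM in Taz-KO, also without overlap (log2 fold change -1.14, SE 0.22, edgeR adjusted p = 0.0049). Hadh, the soluble 3-hydroxyacyl-CoA dehydrogenase, was at 95.00, 134, 125 and 116 CPM in WT and 61.1, 68.1, 80.1 and 40.7 CPM in Taz-KO. Its groups were apart as well (log2 fold change -1.03, SE 0.18, edgeR adjusted p = 0.0028).

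For the 2 short-chain enzymes the groups overlapped. Acads, the short-chain acyl-CoA dehydrogenase, was at 19.9985, 32.0, 24.8 and 15.6 CPM in WT and 8.65, 14.6, 18.3 and 7.05 CPM in Taz-KO, and 34 UMIs stood behind its lowest count. Only Taz-KO mouse 5300 was above a WT mouse, 5356 (log2 fold change -1.004, SE 0.26, edgeR adjusted p = 0.0221). Echs1, the short-chain enoyl-CoA hydratase, was at 55.6, 75.1, 64.9 and 32.6 CPM in WT and 53.4, 49.7, 51.7 and 26.5 CPM in Taz-KO. Its difference was the smallest of the 10 and was not called (log2 fold change -0.43, SE 0.23, edgeR adjusted p = 0.244). Eci1, the isomerase that shifts double bonds of unsaturated chains, was at 65.5, 82.4, 108 and 62.4 CPM in WT and 38.4, 47.4, 51.8 and 38.7 CPM in Taz-KO, without overlap (log2 fold change -0.94, SE 0.17, edgeR adjusted p = 0.0040).

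All 10 enzymes had a log2 fold change below 0 in each of the fits run in cardiomyocytes, but the number called depended on the typing of nuclei and on the libraries. With each nucleus typed by its own 2 markers, 0 of the 10 were called (log2 fold changes of -1.22 to -0.28, lowest edgeR adjusted p = 0.0618), where 2.22% of all genes were called lower, and 6 had an unadjusted p below 0.05. This typing put most nuclei among cardiomyocytes, 13070 in WT mouse 4686 and 2811 in Taz-KO mouse 4685 against 3499 and 160 by cluster. So its cardiomyocyte sums also held nuclei from outside the cardiomyocyte clusters. Without both Taz-KO libraries with few barcodes, 3 of the 10 were called, Acaa2 (log2 fold change -1.40, adjusted p = 0.0148), Hadh (-0.83, adjusted p = 0.0281) and Eci1 (-0.84, adjusted p = 0.0499), all from edgeR, where 3.67% of all genes were called lower. Leaving out 1 mouse at a time gave 5 to 8 called enzymes, with 5 without Taz-KO mouse 4685, Taz-KO mouse 5301 or WT mouse 4909, and Acaa2, Acadm, Hadha, Hadh and Eci1 were called in all 8 of these fits. The call was lost in 6 of the 8 for Acadl, in 5 for Hadhb and in 3 for Acads. At the stricter threshold that the study used for single nuclei (adjusted p below 0.001 and a log2 fold change beyond 0.58 in size), 0 of the 10 were called lower by edgeR, with 0.937% of all genes, although all but Echs1 passed the size of change. DESeq2, taken at that threshold after the data were seen, called 5 of the 10, Acaa2, Hadh, Acadm, Eci1 and Hadha (adjusted p of 3.71e-07 to 0.000288), with 3.58% of all genes called lower. At an adjusted p below 0.05 it called the same 8 enzymes as edgeR, with 9.14% of all genes called lower. The study, with nuclei as the units of its test, reported Hadha, Hadhb, Acadm and Acaa2 as downregulated in cardiomyocytes at its threshold. Mice are the units here, so the counts are not alike.

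Transcripts of other cell types were present in the cardiomyocyte sums. The 6 fibroblast markers summed to 940 to 4520 CPM in WT and 280 to 3376 CPM in Taz-KO mice, and all 6 had a log2 fold change below 0, with Bicc1 called. The 4 smooth muscle markers summed to 15.9 to 56.3 CPM in WT and 50.9 to 236 CPM in Taz-KO mice, with Acta2 called higher (23.3 against 136 CPM on average), while Myh11, Tagln and Cnn1 had log2 fold changes of -0.03, 0.22 and 0.50 and were not called. All tested markers had log2 fold changes below 0 in the macrophage (6, F13a1 called), lymphatic endothelial (4, Reln called), B-lymphocyte (5, Bank1 called), endothelial (5) and pericyte (5) lists, and 4 of 5 were above 0 in the mesothelial list. Of the T-lymphocyte markers 3 of 5 were below 0 (Themis called), as were 3 of 5 of Schwann cells and 3 of 5 tested of adipocytes. The 5 cardiomyocyte markers themselves had a median log2 fold change of -0.26. The part of these transcripts in the enzymes' differences was not tested. A share of 0.2 of each sum was also subtracted, as a stand-in for ambient RNA. It followed the summed profile of all deposited barcodes of the library, cardiomyocyte nuclei included. No profile of empty droplets was used, so free RNA itself was not measured. With this ambient share subtracted, 7 of the 10 enzymes were called, all but Acadvl, Acadl and Echs1. Of all genes, 6.78% were called lower in that fit. The log2 fold change of Acadl was then -0.77 in place of -0.67 (edgeR adjusted p = 0.0515), and the 10 ran from -2.08 to -0.51 in place of -1.84 to -0.43.

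The cardiomyocytes formed 4 clusters, and the difference was looked at within each. Cluster 0 held 67.7% to 78.2% of the cardiomyocyte nuclei of each WT mouse and 13.6% to 57.5% of each Taz-KO mouse, and cluster 9 held 9.01% to 10.8% and 25.7% to 47.5%, so the sums of the genotypes differed in makeup. Cluster 11 held 10.1% to 18.8% of each WT mouse and 9.48% to 45.9% of each Taz-KO mouse, with the most in mouse 5301. Within cluster 0, 6 of the 10 enzymes were called lower (edgeR), where 4.33% of 17461 genes were. These were Acaa2, Acadm, Hadha, Hadhb, Hadh and Eci1. Within cluster 9, Acadl joined them and 7 of the 10 were called lower, where 6.71% of 13943 genes were. Acaa2 had a log2 fold change of -1.67 (SE 0.30) in cluster 0 and -1.95 (SE 0.27) in cluster 9.

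In cluster 11, all 10 enzymes had log2 fold changes below 0, with a median of -0.89, and 0 passed the edgeR test, where 1.51% of 11964 genes were called lower, while 6 had an unadjusted p below 0.05. Cluster 26, which was led by genes such as Mybphl and Fgf12, gave a median of -0.35 over the 10 enzymes and 0 calls, with 3 at an unadjusted p below 0.05. Only 0.239% of 10035 genes were called lower there, so that the 0 of 10 was near the share of all genes. Taz-KO mouse 4685 gave fewer than 10 nuclei there and was left out of that fit. Whether the difference in cluster 26 was smaller than in the other clusters was not tested. Summed over the 10 enzymes, the level was 1925 CPM ± 440 in WT against 1062 CPM ± 292 in Taz-KO nuclei of cluster 0, and 1753 CPM ± 351 against 953 CPM ± 233 in cluster 9 (SD, n = 4 each). In cluster 11 it was 2445 CPM ± 623 against 1444 CPM ± 677 (n = 4 each). In cluster 26 it was 1625 CPM ± 368 (n = 4) against 1111 CPM ± 395 (n = 3). The groups overlapped in clusters 11 and 26.

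**Figure D2:**
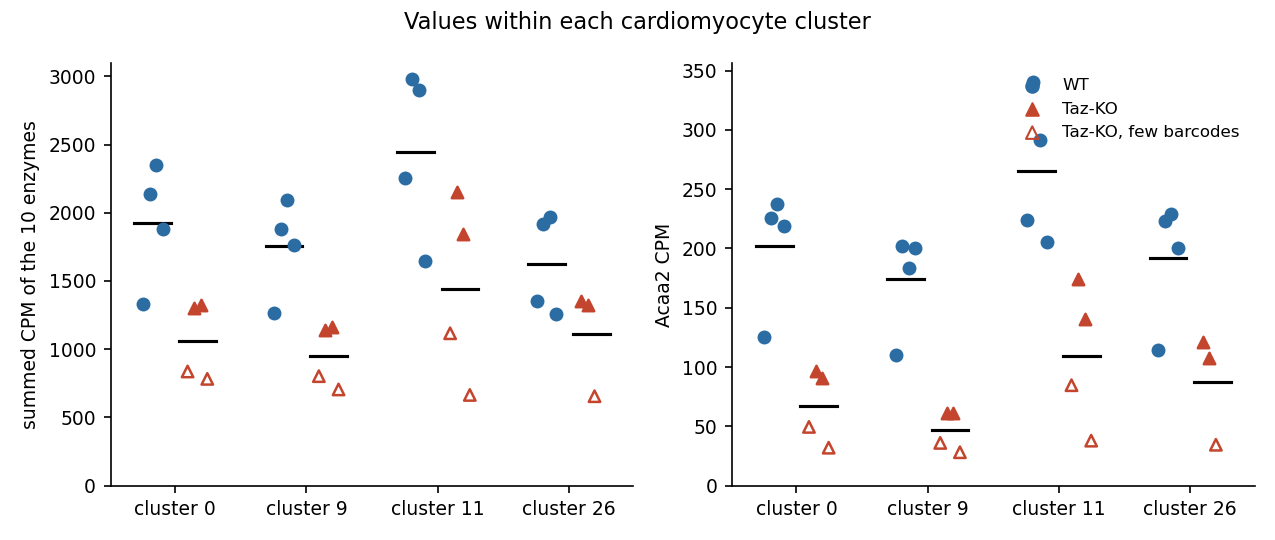
Summed CPM of the 10 enzymes (left) and CPM of Acaa2 (right) in each cardiomyocyte cluster of each mouse, with circles for WT, triangles for Taz-KO, open triangles for the Taz-KO mice with few barcodes and bars at group means. The means of the sum in clusters 0 and 9 were 1925 and 1753 CPM in WT and 1062 and 953 CPM in Taz-KO mice.

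Long-chain steps were then set against medium- and short-chain steps. In cardiomyocytes the 4 long-chain enzymes summed to 803, 1261, 1447 and 1083 CPM in WT and 502, 834, 823 and 468 CPM in Taz-KO mice, with a mean in Taz-KO of 57.2% of WT. The 5 medium- and short-chain enzymes summed to 505, 804, 784 and 691 CPM in WT and 301, 389, 423 and 201 CPM in Taz-KO mice, at 47.2% of WT and without overlap. Of the long-chain enzymes 3 of 4 were called lower and their log2 fold changes had a median of -0.86, and of the medium- and short-chain enzymes 4 of 5 with a median of -1.03.

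The log2 ratio of the long-chain sum to the medium- and short-chain sum was 0.67, 0.65, 0.88 and 0.65 in WT and 0.74, 1.10, 0.96 and 1.22 in Taz-KO cardiomyocytes. The means were 0.71 ± 0.11 and 1.01 ± 0.21 (SD, n = 4 each), a difference of 0.29 in log2 units, and WT mouse 5355 was above Taz-KO mouse 4685. With Acaa2 left out, an alternative chosen after its values were seen, the difference shrank to 0.090, less than the SD of either group. Most of the difference in cardiomyocytes thus came from the single enzyme Acaa2. No test was made of this ratio, since its members were chosen with the data known.

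**Figure D3:**
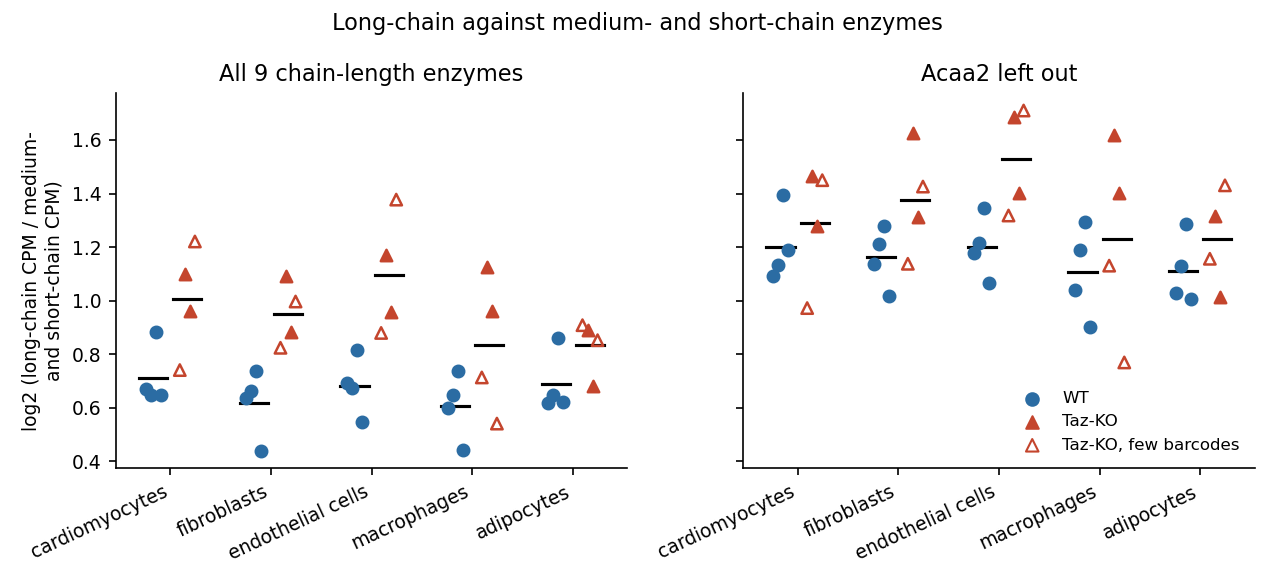
Log2 of the summed CPM of the 4 long-chain enzymes over that of the medium- and short-chain enzymes, per mouse and cell type, with all 5 of the latter (left) and without Acaa2 (right), drawn as circles for WT, triangles for Taz-KO, open triangles for the Taz-KO mice with few barcodes and bars for group means. In cardiomyocytes the group means differ by 0.29 on the left and by 0.090 on the right.

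The same ratio had a higher mean in Taz-KO mice in other cell types too, but their sums also held cardiomyocyte transcripts. Over the mice, 12 abundant cytoplasmic cardiomyocyte mRNAs had median ratios to cardiomyocytes of 1.41 in fibroblasts and 1.61 in endothelial cells. The 5 cardiomyocyte markers had 0.221 and 0.254. The part of these transcripts was not tested, and the ratio of long-chain to medium- and short-chain sums is given as measured. In fibroblasts it was 0.64, 0.66, 0.74 and 0.44 in WT and 0.82, 1.09, 0.88 and 1.00 in Taz-KO mice, and in endothelial cells 0.69, 0.67, 0.82 and 0.55 in WT and 0.88, 1.17, 0.96 and 1.38 in Taz-KO mice. Neither pair of groups overlapped. The groups did overlap in macrophages, with means of 0.61 ± 0.12 and 0.84 ± 0.26, and in adipocytes, with means of 0.69 ± 0.12 and 0.83 ± 0.10 (SD, n = 4 each). With Acaa2 left out, the groups overlapped in all 5 cell types, and the difference between group means was 0.21 in place of 0.33 for fibroblasts and 0.33 in place of 0.41 for endothelial cells.

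Across cell types, the enzymes' levels in WT mice differed less for some enzymes than for others. The highest mean CPM over 9 cell types was 1.29 (Hadh) to 2.39 (Acadvl) times the lowest. Cardiomyocytes had the highest mean for 3 of the 10, Hadha at 435 CPM ± 111 (SD, n = 4), Hadhb at 352 CPM ± 88.5 and Acadm at 297 CPM ± 61.7. Mesothelial cells had the lowest mean for 6 of the 10 and adipocytes for the other 4.

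The levels outside cardiomyocytes have to be read beside free RNA of the nuclear suspension, which enters every droplet. In the same mouse, the 5 cardiomyocyte markers, transcripts that other cells should lack, stood in fibroblasts at a median ratio to cardiomyocytes of 0.0629 to 0.292. For 12 abundant cytoplasmic cardiomyocyte mRNAs the ratio was 0.264 to 2.06. For the 10 enzymes it was 0.412 to 1.26, nearer to the cytoplasmic mRNAs than to the markers. Myh6 and Tnnt2 belonged to both of these reference lists, with median ratios over the mice of 0.33 and 0.38 in fibroblasts. In fibroblasts, WT mouse 5356 and Taz-KO mouse 5301 had the lowest ratios of the enzymes and of the cytoplasmic mRNAs. Their enzymes stood at 0.412 and 0.454 there, against 0.960 to 1.26 in the other 6 mice. The same mice were lowest in endothelial cells and macrophages, but in adipocytes the enzymes of mouse 5301 stood at 1.51. Endothelial cells and macrophages gave the enzymes ratios of 0.502 to 1.90 and 0.480 to 1.82. How much of the enzymes' level in these cells was free RNA was not tested.

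**Figure D4:**
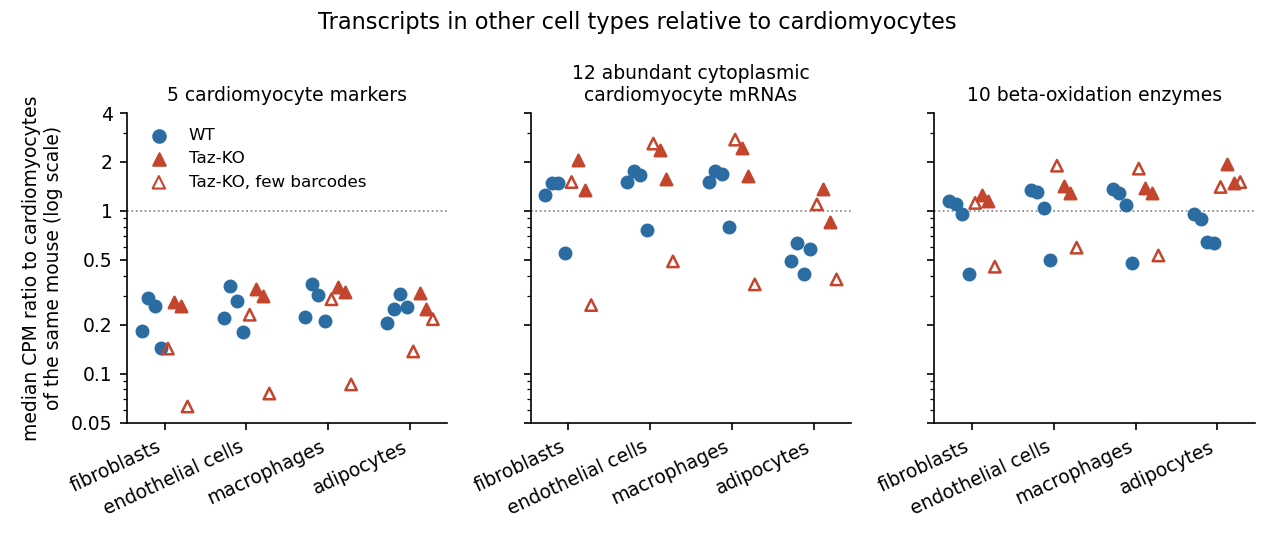
Median CPM ratio of a cell type to the cardiomyocytes of the same mouse, on a log axis, for the 5 cardiomyocyte markers, the 12 abundant cytoplasmic cardiomyocyte mRNAs and the 10 enzymes, with circles for WT, triangles for Taz-KO, and open triangles for the Taz-KO mice with few barcodes. In fibroblasts the enzymes lie between 0.412 and 1.26, whereas the markers lie between 0.0629 and 0.292.

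In fibroblasts, endothelial cells and macrophages, all 10 enzymes had log2 fold changes below 0, and 0 of the 10 were called in any of the 3. The values ran from -1.10 to -0.38 in fibroblasts, where 0.366% of genes were called, from -0.87 to -0.26 in endothelial cells, where 0.356% were, and from -0.90 to -0.22 in macrophages, where 0.248% were. The directions depended on single libraries. Without Taz-KO mouse 5301, all 10 values stayed below 0 in fibroblasts (-0.81 to -0.10), but 7 of the 10 did in endothelial cells (-0.62 to 0.06) and 8 in macrophages (-0.58 to 0.15). Without both libraries with few barcodes, 8 of the 10 were below 0 in each of the 3 cell types, and without WT mouse 4909, 9 were in macrophages. With all 8 mice and nuclei typed by cluster, none of the 10 had an unadjusted p below 0.05 in edgeR's quasi-likelihood test with TMM scaling and doublets removed. With macrophages typed by each nucleus's own markers, 2 did, and 9 of the 10 were below 0 (-0.90 to 0.10). Without WT mouse 5356, 6 did in fibroblasts (log2 fold changes of -1.33 to -0.63), 6 in endothelial cells and 3 in macrophages, still with 0 called, and fibroblasts gave 2 without Taz-KO mouse 4910 and 1 each with RLE scaling and with doublets kept. DESeq2 also called 0, with 2, 1 and 0 at an unadjusted p below 0.05. Acaa2 had the lowest value in each. In fibroblasts it was at 172, 258, 225 and 91.9 CPM in WT and 63.1, 147, 127 and 28.0 CPM in Taz-KO mice, where WT mouse 5356 lay among the Taz-KO mice.

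The difference between cardiomyocytes and each of these cell types was tested as an interaction of genotype and cell type, with the mouse as a block. None of the 10 enzymes passed against fibroblasts (4.57% of genes called), endothelial cells (2.39%) or macrophages (1.37%), and none had an unadjusted p below 0.05 in these edgeR tests. Other settings also called 0, but without Taz-KO mouse 5301, 3 had an unadjusted p below 0.05 against endothelial cells and 3 against macrophages, and 5 other settings gave 1 against endothelial cells, macrophages or each of them. The cardiomyocyte change minus the fibroblast change was -0.63 to -0.02 in log2 units, below 0 for all 10, but for 5 of the 10 without WT mouse 5356 or without Taz-KO mouse 4910. Without WT mouse 5356 it was below 0 for 7 of the 10 against endothelial cells and for 5 against macrophages. For Acaa2 against endothelial cells it was -0.97 (SE 0.49, edgeR adjusted p = 0.355). These tests do not show that the enzymes changed alike in the cell types.

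**Figure D5:**
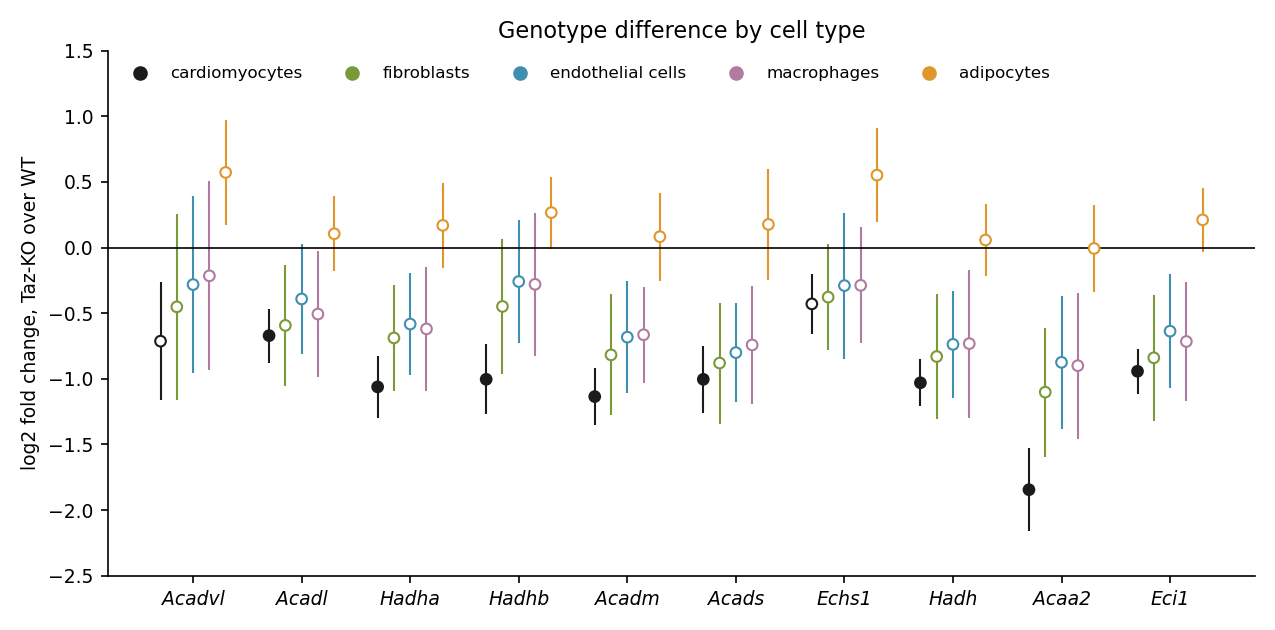
Log2 fold change of Taz-KO over WT with its SE for each enzyme in 5 cell types (4 against 4 mice), filled where the edgeR adjusted p was below 0.05. Filled points occur in cardiomyocytes for 8 of the 10 enzymes, the open points of fibroblasts, endothelial cells and macrophages lie below 0, and those of adipocytes lie between -0.01 and 0.57.

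Adipocytes, which were few, gave another picture. Their 901 nuclei included 331 from Taz-KO mouse 4910 and 12 from Taz-KO mouse 4685, and 0 of the 10 enzymes were called, with 0.243% of 11090 genes called and 0 enzymes at an unadjusted p below 0.05 in edgeR. DESeq2 called 0 as well. The log2 fold changes ran from -0.01 (Acaa2) to 0.57 (Acadvl), and without Taz-KO mouse 4910 they ran from -0.30 to 0.38, with 7 of the 10 below 0. Acaa2 was at 126, 204, 126 and 107 CPM in WT and 55.5, 200.4, 152 and 125 CPM in Taz-KO adipocytes, so that the groups overlapped, with Taz-KO mouse 4685 below all WT mice. Acadvl was at 70.2, 101, 66.5 and 45.2 CPM in WT and 86.3, 151, 142 and 25.7 CPM in Taz-KO adipocytes, where mouse 5301 had 7 UMIs. Without both Taz-KO libraries with few barcodes, all 10 log2 fold changes in adipocytes were above 0 (0.32 to 1.02), 6 had an unadjusted p below 0.05, and Acadvl was called higher (log2 fold change 1.02, SE 0.24, edgeR adjusted p = 0.0247), where 4.6% of 13162 genes were called higher and 5.67% lower.

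The interaction of cardiomyocytes with adipocytes was tested after these values had been seen. It called 6 of the 10 enzymes, all with a lower change in cardiomyocytes, where 3.71% of 14478 genes were called and 2.21% were called in that direction. The 6 were Acaa2 (difference of log2 fold changes -1.78, SE 0.32, edgeR adjusted p = 0.0098), Hadhb (-1.20, adjusted p = 0.0159), Acadvl (-1.23, adjusted p = 0.0208), Eci1 (-1.13, adjusted p = 0.0227), Hadh (-1.08, adjusted p = 0.0315) and Hadha (-1.13, adjusted p = 0.0496). All 10 differences were below 0, with an unadjusted p below 0.05 for each. The numbers called in other fits, given next, have no share of all genes beside them. In adipocytes alone, leaving out both libraries with few barcodes moved the genes called from 0.243% to 4.6% higher and 5.67% lower. The number called was 10 without the 2 libraries with few barcodes, 0 without Taz-KO mouse 4910, 1 without WT mouse 4909 or 5355, 2 without Taz-KO mouse 5300 or WT mouse 4686, and 0 after the ambient share was subtracted, although the differences were then -2.19 to -0.85, against -1.78 to -0.71, and all 10 kept an unadjusted p below 0.05 (lowest edgeR adjusted p = 0.0600). In adipocytes the enzymes stood at 0.638 to 0.959 times the cardiomyocyte level of the same mouse in WT and 1.40 to 1.95 times in Taz-KO mice, the 12 cytoplasmic cardiomyocyte mRNAs at 0.411 to 0.633 and 0.380 to 1.36 times (0.380 in Taz-KO mouse 5301 and 0.855 to 1.36 in the other 3), and the 5 cardiomyocyte markers at 0.206 to 0.308 and 0.137 to 0.312 times. The part of these transcripts in the interaction was not tested.

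The genes that feed and surround the spiral were read from 7 lists. Of 66 genes, 64 were tested in cardiomyocytes, 25 were called lower, where 6.9% of all genes were, and 1 was called higher, where 9.05% of all genes were. The number called lower was 16 without Taz-KO mouse 4685 and 10 without both libraries with few barcodes. It was smaller still with edgeR at the study's stricter threshold and with nuclei typed by their own markers. The carnitine shuttle, which carries long-chain acyl groups into the matrix, had 5 of 6 called lower. These were Cpt1a (log2 fold change -1.18, edgeR adjusted p = 0.0177), Cpt2 (-1.07, adjusted p = 0.0052), the carnitine transporter Slc22a5 (-1.01, adjusted p = 0.0052), the carrier Slc25a20 (-0.82, adjusted p = 0.0149) and the acetyltransferase Crat (-0.65, adjusted p = 0.0269). Cpt1b averaged 193 CPM in WT and 158 CPM in Taz-KO, with overlapping groups. It was not called (-0.40, edgeR adjusted p = 0.183). Of uptake and activation, 4 of 9 tested genes were called lower, the acyl-CoA synthetases Acsl1 (-1.30), Acsl3 (-0.75) and Acsl6 (-2.63) and the transporter Slc27a1 (-1.33). Electron transfer, which takes electrons from the acyl-CoA dehydrogenases, had 2 of 3 called lower, Etfa (-0.63) and Etfdh (-0.98).

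Among 15 other mitochondrial acyl-CoA enzymes, 5 were called lower, the dienoyl-CoA reductase Decr1 (log2 fold change -1.15), Acad11 (-0.87), the branched-chain dehydrogenases Acadsb (-0.64) and Ivd (-0.67), and the acetoacetyl-CoA thiolase Acat1 (-0.61). Of 9 tested peroxisomal genes 3 were called lower, the bifunctional enzyme Ehhadh (-1.81), Scp2 (-0.78) and Abcd2 (-0.68). Of 16 regulators and genes of malonyl-CoA control, 5 were called lower, the malonyl-CoA decarboxylase Mlycd (-1.15), the acetyl-CoA carboxylase Acacb (-0.84), Esrrb (-0.78), Rxra (-0.69) and Rxrg (-0.68), while the median of this list was -0.10. Of the PPAR and ERR receptors, Ppara (0.24), Ppard (-0.09), Pparg (0.15), Esrra (-0.21) and Esrrg (-0.09) were not called. Nor were Ppargc1a (-0.05) and Ppargc1b (0.13). Of 6 genes of the switch between ketones and glucose, the uncoupling protein Ucp3 was called lower (-1.83) and the ketone body dehydrogenase Bdh1 was the 1 gene called higher (1.84).

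Beside the members' median of -1.004, 12 abundant cytoplasmic cardiomyocyte mRNAs had a median log2 fold change of -0.67, all 12 below 0. They ran from -1.50 (Tcap) to -0.09 (Tnnc1). Tcap, Mb (-1.38), Myl3 (-1.21), Myl2 and Tnni3 (-1.02) were below the members' median, and the others were above it. Of the 12, 1 was called lower (Myl2, log2 fold change -1.08, edgeR adjusted p = 0.0318), where 6.9% of all genes were. The 18 citrate cycle enzymes, which burn the acetyl-CoA that beta-oxidation yields, had a median of -0.26 and 1 called lower (Sdhc, -0.52, adjusted p = 0.0418). Of these 30 companion genes, 0 were called lower in each fit without 1 mouse except the fit without WT mouse 5356, which called 8. The share of all genes called in these fits is not given. The cytoplasmic mRNAs summed to 15925 to 23175 CPM in WT and 11511 to 19596 CPM in Taz-KO cardiomyocytes, and their part in the enzymes' differences was not tested. Across the 8 cardiomyocyte sums, the genes whose log2 CPM most resembled the mean of the 10 enzymes, among 6493 genes of at least 20 CPM, were Paqr9 (Pearson r = 0.99), Rab8b (0.99), Cpt2 (0.97), Ccpg1 (0.97) and Ndrg2 (0.96). The 8 points share the genotype split and the libraries, and the correlations are a description.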

How the data were processed

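Libraries of nuclei from 8 hearts were compared, 4 WT and 4 Taz-KO, grouped by the genotype label. The deposited matrices hold whole-number UMI counts for each gene in each barcode, which the authors obtained from Cell Ranger 6.0.1 (mm10, intronic reads included, per the labels and methods) ahead of their own ambient correction and doublet filter. Barcodes with under 800 UMIs or 250 genes were removed, doublets were scored against simulated pairs and removed, and 2000 variable genes, 15 principal components, Harmony and Leiden clustering (resolution 0.9) gave 38 clusters. A cluster was named by its markers (score of at least 0.35, next unrelated type below 0.2, at least 3 markers raised). Its mean doublet score also had to be below 0.55. The rule was revised after the marker scores were seen. Clusters with cardiomyocyte markers above that doublet score stayed unnamed, and they are the mixed clusters added in 1 alternative. Sums per mouse with at least 10 nuclei were fitted with edgeR 4.0.16 (TMM, filterByExpr) in R 4.3.3, and DESeq2 1.42.0 was an alternative. The fits were tested on simulated data. The study's own test treated nuclei as units with the mouse as covariate, whereas mice are the units here. The p-values weigh each genotype difference against the spread between the sums of the mice. Hearts were 1 library each, so mouse and library cannot be told apart.

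The members and lists were chosen with earlier results of these data known. All 10 members were named. Listed genes were named where called (at most 5 per list), as were Taz and the 5 genes most like the members' mean. Some uncalled genes of the lists were named as well. Levels are CPM with mitochondrial genes left out, which also removes their share of 0.593% to 16.9% of the cardiomyocyte sums. Gene positions are from GENCODE vM21 and promoter sequences from RefSeq. Members had at least 34 UMIs per mouse in cardiomyocytes, but as few as 13 in fibroblasts, 6 in endothelial cells and macrophages and 1 in adipocytes, so counting error is large for the low-count enzymes of Taz-KO mouse 5301 there.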

Additional observations from a re-analysis of the deposited data

Results flagged for a closer look

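Single mice far from the other 3 of their group were found in 11 of 102 groups examined. Chance gives about 1 in 20 for a single group. The groups share the same 8 mice and are not independent, so no excess can be read from the count. In Taz-KO cardiomyocytes the lowest Echs1 value was 26.5 CPM (mouse 5301). In Taz-KO endothelial cells the lowest values were 101 CPM for Hadha, 50.7 CPM for Acadm, 23.2 CPM for Acaa2 and 17.6 CPM for Eci1. In Taz-KO macrophages they were 63.9 CPM for Hadha, 75.6 CPM for Acadm, 20.2 CPM for Echs1, 19.2 CPM for Acaa2 and 16.0 CPM for Eci1. All 10 of these came from mouse 5301, which had few barcodes. The remaining case was the log2 ratio of long-chain to medium- and short-chain enzymes in WT cardiomyocytes, whose highest value was 0.88, in mouse 5355.

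The genotype effect differed between cardiomyocytes and adipocytes for 6 enzymes in edgeR's interaction test, with differences in log2 fold change of -1.23 (Acadvl), -1.13 (Hadha), -1.20 (Hadhb), -1.08 (Hadh), -1.78 (Acaa2) and -1.13 (Eci1), lower in cardiomyocytes in each case. The test was chosen after the data were seen, and it called 3.71% of 14478 genes. The 6 calls became 0 without Taz-KO mouse 4910 and with the ambient share subtracted, and 1 without WT mouse 4909 or 5355, with all 10 differences below 0 in each of these fits.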

How the results depend on the processing

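No paired analysis was possible because the replicate numbers are mouse numbers that no 2 groups share. In cardiomyocytes 8 enzymes were called, also with RLE scaling, DESeq2, no filter on low counts, doublets kept and mixed clusters added, 7 with the ambient share subtracted, and 5 to 8 leaving out 1 mouse at a time. The count was 3 without both libraries with few barcodes, 5 with DESeq2 at the study's stricter threshold, and 0 with edgeR at that threshold, in cluster 11, in cluster 26 and with nuclei typed by their own markers. In the last, Ryr2 or Ttn UMIs in most barcodes put most nuclei among cardiomyocytes, and that typing could not be run for fibroblasts, endothelial cells and adipocytes. Fibroblasts, endothelial cells and macrophages gave 0 calls in every fit run, also in the interactions, although the directions of their uncalled values changed with the libraries, and adipocytes gave 1 without both libraries and 0 otherwise. Against adipocytes, 6 enzymes differed, 9 with no filter, 0 with the ambient share subtracted (differences of -2.19 to -0.85, all 10 at an unadjusted p below 0.05), 10 without both libraries and 0 to 9 leaving out 1 mouse. The pathway genes called lower numbered 25, and 1 at the stricter threshold (12 with DESeq2 there), 16 in cluster 0, 5 in cluster 11, 0 in cluster 26, 3 with nuclei typed by their own markers, 10 without both libraries and 16 to 22 leaving out 1 mouse. The companion genes called lower numbered 2, and 7 with DESeq2, 0 at the stricter threshold (also 0 with DESeq2 there), 1 in cluster 0, 0 in clusters 11 and 26, 4 with mixed clusters, 1 with no filter, 0 with nuclei typed by their own markers, 0 without both libraries and 0 to 8 leaving out 1 mouse. The Taz log2 fold change of -0.65 was no longer called in cluster 26 (-0.74), cluster 9 (-0.48), with nuclei typed by their own markers (-0.69) and without both libraries (-0.78), and was -0.74 to -0.49 leaving out 1 mouse, called in 3 of these 8 fits. The chain-length difference of 0.29 moved to 0.090 without Acaa2. The cause of these shifts was not tested, and the counts here are not set beside the share of all genes called in each fit. No log2 fold change of an enzyme in cardiomyocytes changed sign in any fit. The mixed clusters, single clusters, DESeq2 at the stricter threshold, the adipocyte interaction and the ratio without Acaa2 were chosen after seeing the data.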
